A study of Saccharomyces cerevisiae BY4741 with 5 samples.

Results

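Mitochondria carry their own ribosomes, which translate the few mRNAs of the mitochondrial genome, most of them for core subunits of the respiratory chain and the ATP synthase. In budding yeast nearly all proteins of these ribosomes are encoded in the nucleus, so their mRNAs are exported, translated in the cytosol or at the mitochondrial surface, and the products are imported. In yeast many of these mRNAs are known targets of the RNA-binding protein Puf3, whereas Ssd1, the protein studied here, is known mainly for mRNAs of cell wall proteins. The transcripts described here are those of the count table whose standard symbol is MRPL, MRPS, MRP or RSM followed by a number. This rule took 66 of the 5090 transcripts: 34 MRPL, 9 MRPS, 12 MRP and 11 RSM. Of these, 37 encode proteins of the large subunit and 28 of the small subunit. The remaining 1, MRP8 (YKL142W), was named from its sequence but is no longer counted as a mitochondrial ribosomal protein, so results that it moves are also given without it.

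In CRAC (cross-linking and analysis of cDNA), RNA is fixed to its protein by ultraviolet light in growing cells, the protein is pulled out through a tag, and the RNA pieces that stay attached are sequenced. All cells were Saccharomyces cerevisiae BY4741 in synthetic medium without tryptophan, in exponential growth. The independent clones 3 and 4, in which the chromosomal SSD1 gene carries a C-terminal HTP tag, gave 1 library each after 16 min at 42°C and 1 each from cells kept at 30°C, and untagged BY4741 gave 1 control library at 30°C, with no heat-shocked counterpart. Cells for heat shock were collected on filters and moved to pre-warmed medium, while those kept at 30°C went directly to cross-linking. Temperature and this handling cannot be told apart. The samples of a clone at both temperatures were combined during library preparation. The values are read counts per transcript. Amounts of mRNA were not analysed here, so a change in counts can come from a change in binding or in mRNA level, and these cannot be told apart.

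The heat shock libraries held 169549 and 413502 counts in all, those from 30°C 176962 and 111824, and the control 3921. The heat shock labels were borne out by 4 transcripts of heat shock proteins, HSP104, SSA4, HSP42 and HSP26, which had log2 fold changes between 5.14 and 6.56 at 42°C against 30°C (HSP26, the lowest, with adjusted p = 0.00194 in edgeR). Of the genes deleted in BY4741, LEU2 had no counts, nor had URA3, although a URA3 marker came in with the tag, MET17 had 1 count in all, and HIS3, of which this strain keeps a part, had 1 to 20 counts in the Ssd1–HTP libraries.

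The transcripts of mitochondrial ribosomal proteins took few counts in every library. Summed over the members, the libraries at 42°C had 454 and 995 counts, those at 30°C 728 and 326, and the control 17. As shares of the library totals these were 0.268% and 0.241% at 42°C and 0.411% and 0.292% at 30°C, in the order of replicates 3 and 4. The control share was 0.434% (exact Clopper-Pearson 95% interval 0.253 to 0.693%, for counting error only). The shares at 30°C lay inside the control's interval and the one of replicate 4 at 42°C lay below it. The observed share of the set was thus in no Ssd1–HTP library above that of the control. With 17 control counts, a larger share with Ssd1–HTP than without a tag is not excluded. At 30°C the share was 0.842 times that of the control, with an exact 95% interval of 0.523 to 1.45. These are shares of a library and leave out that the control yielded far fewer counts in all.

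**Figure D1:**
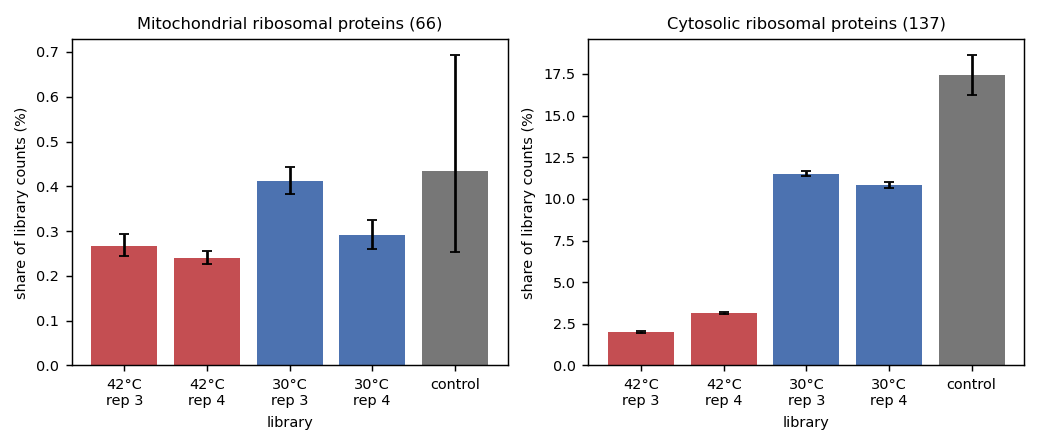
Share of each library's counts (%) on 66 mitochondrial ribosomal protein transcripts (left) and on 137 cytosolic ribosomal protein transcripts (right), for the libraries at 42°C, at 30°C and of the untagged control. Bars are single libraries and error bars are exact 95% Clopper-Pearson intervals. The mitochondrial set ranges from 0.241 to 0.434%, while the cytosolic set is at 2.0 and 3.15% at 42°C against 11.5 and 10.8% at 30°C.

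At 42°C the mean share was 0.254% ± 0.0192, and at 30°C it was 0.351% ± 0.0848 (SD, n = 2 each). The difference of -0.0973 percentage points was little larger than the SD at 30°C alone. Both libraries at 42°C were below both at 30°C, but 42°C replicate 3 and 30°C replicate 4 were close and their counting intervals (0.244 to 0.294% and 0.261 to 0.325%) overlapped. The ratio of 42°C to 30°C was 0.723, with 0.651 within clone 3 and 0.825 within clone 4. With 30°C replicate 3 left out the ratio was 0.872, and with 30°C replicate 4 left out it was 0.618. Without MRP8 it was 0.684.

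Transcripts of cytosolic ribosomal proteins, the abundant proteins of the ribosomes that translate nuclear mRNAs, served as the comparison. The 137 of them (symbols RPL, RPS and RPP, without the RNase P gene RPP1) held 2.0% and 3.15% of the counts at 42°C and 11.5% and 10.8% at 30°C, against 17.4% in the control. Their ratio of 42°C to 30°C was 0.231, and it lay between 0.174 and 0.292 over the 4 ways to set 1 heat shock library against 1 from 30°C. For the mitochondrial set the same 4 ratios were 0.585 to 0.918. The ranges did not overlap, and the share of the mitochondrial set was thus lower at 42°C by less than that of the cytosolic set. Scaled by the TMM method, which sets aside transcripts that differ most, the ratios were 0.765 for the mitochondrial and 0.250 for the cytosolic set. A design of 2 libraries against 2 cannot give an exact p below 0.333, so no test was made of these sums.

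For both subunits the mean share was lower at 42°C than at 30°C. The large subunit transcripts held 0.138% and 0.105% at 42°C and 0.248% and 0.134% at 30°C, so that the libraries of the temperatures overlapped. The small subunit transcripts held 0.119% and 0.106% at 42°C and 0.152% and 0.150% at 30°C, without overlap. The counting interval of 42°C replicate 3 (0.103 to 0.137%) overlapped those at 30°C (0.134 to 0.171% and 0.128 to 0.175%). That of 42°C replicate 4 (0.0960 to 0.116%) did not. The ratios of 42°C to 30°C were 0.637 for the large and 0.744 for the small subunit. The clones at 30°C were thus apart in the large subunit and close in the small subunit.

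Most members were seen in some libraries and not in others. At least 1 count fell on 45 and 57 of the 66 members at 42°C, on 49 and 38 at 30°C, and on 7 in the control. As percentages these were 68.2% and 86.4% at 42°C, 74.2% and 57.6% at 30°C, and 10.6% for the control. Over all 5090 transcripts the detection rate was 74.6% and 88.1% at 42°C, 79.1% and 67.9% at 30°C, and 11.0% for the control. The members' rate was 1.77 to 10.4 percentage points below that of all transcripts in the Ssd1–HTP libraries and 0.396 points below it in the control, a gap of under 1 transcript, and these gaps were not tested. Detection depends on depth. At the depth of 30°C replicate 4, the smallest Ssd1–HTP library, the expected numbers of members were 43.5 and 50.9 at 42°C, against 47.8 and 38 at 30°C, so the temperatures overlapped. At the depth of the control, the Ssd1–HTP libraries were expected to show 9.07 and 8.14 members at 42°C and 13.1 and 9.43 at 30°C, against 7 seen in the control. As percentages of the members these were 13.7% and 12.3% at 42°C, 19.9% and 14.3% at 30°C, and 10.6% for the control. Over all transcripts the same depth gave 25.5% and 25.0% at 42°C and 27.0% and 25.5% at 30°C, against 11.0% for the control.

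**Figure D2:**
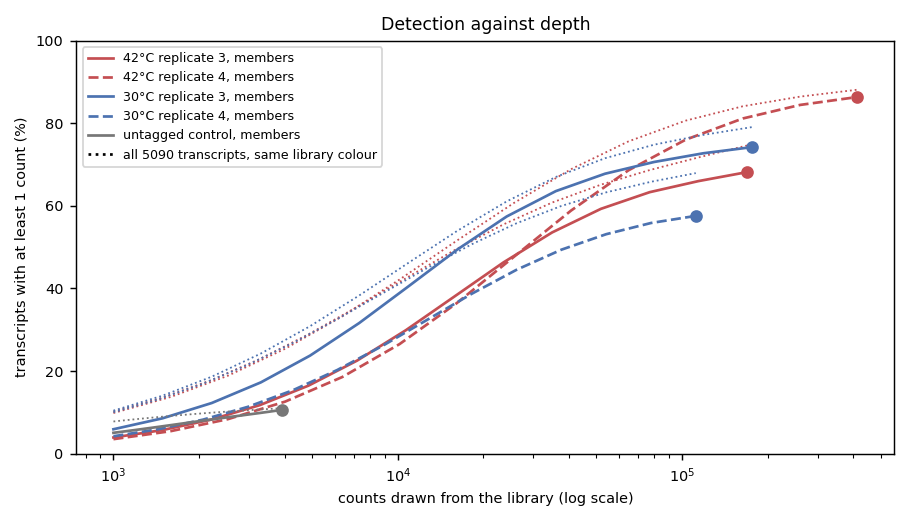
Percentage of transcripts with at least 1 count (vertical axis) expected when a given number of counts (horizontal axis, log scale) is drawn from each library. Thick lines are the 66 members, dotted lines all 5090 transcripts, and end points the libraries as deposited. At full depth the members reach 68.2 and 86.4% at 42°C, 74.2 and 57.6% at 30°C and 10.6% for untagged cells, each below the dotted line of its library.

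Counts in all 4 Ssd1–HTP libraries were recorded for 18 members, in 3 of them for 26, in 2 for 18 and in 1 for 3. MRPS5 (YBR251W), the counterpart of bacterial ribosomal protein S5, had no counts in any of the 5 libraries, and MRP21 (YBL090W) had 1, in 42°C replicate 3. Replicates often disagreed for single members. At 42°C, 44 members had between 10 and 60 counts in the 2 libraries together, and for 13 of these (29.5%) 1 library had none. At 30°C this held for 21 of 43 members (48.8%), 18 of which had no counts in replicate 4. That library was the shallower one, and what part depth had in this was not tested. Among all transcripts in the same range, 19.0% at 42°C and 20.6% at 30°C had none in 1 library, with median sums of 26 and 23 counts against 21 and 20 for the members. RSM27, for example, had 0 and 34 counts at 42°C and 23 and 0 at 30°C (RSM27 and MRP21 were picked after their values had been seen). This spread between clones limits every statement on a single member.

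**Figure D3:**
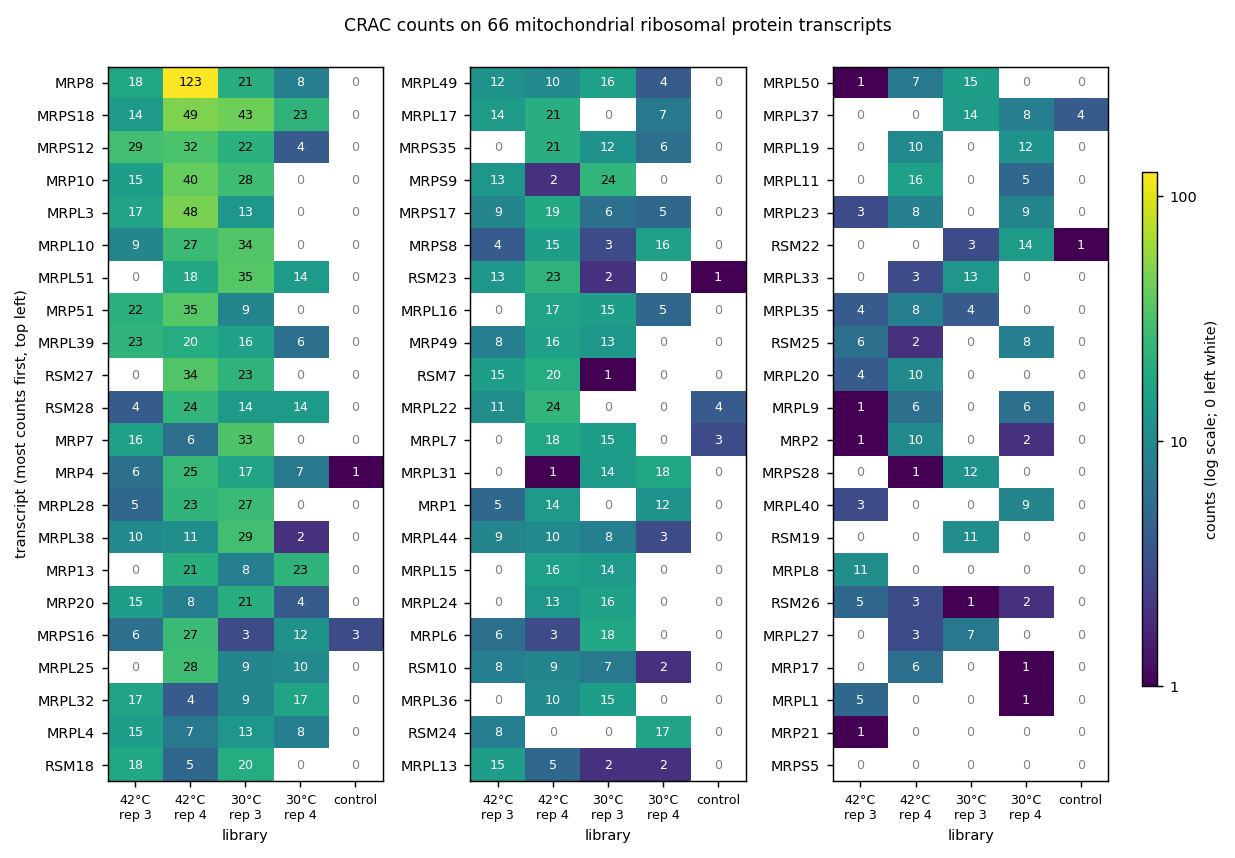
Counts on each of the 66 members (rows, ordered by mean count in the Ssd1–HTP libraries from the top left) in the 5 libraries (columns). Colour gives the count on a log scale and white cells are 0. Only MRP8 passes 100 counts in a library (123 in 42°C replicate 4), many members have 0 in one clone and 10 or more in the other, and 7 members have counts in the control.

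In the Ssd1–HTP libraries the members had a median of 8.5 counts, against 11.75 over all transcripts. A mean of at least 10 counts over the 5 libraries was reached by 17 members and over the 4 Ssd1–HTP libraries by 24. These 24 entered the test of 42°C against 30°C, in which 2837 transcripts were tested. MRPL49 and MRPL17, with a mean of 10.5, were just inside this limit, and MRPS35, MRPS9 and MRPS17, with 9.75, just outside. Because a member could pass through the temperature at which it was high, the 24 do not stand for all 66.

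None of the 24 members was called higher or lower at 42°C. Calls needed a Benjamini-Hochberg adjusted p under 0.05 in the quasi-likelihood test of edgeR. Over all transcripts tested, 3.81% were called higher and 3.45% lower, or 7.26% in all. The lowest adjusted p of a member was 0.393, and at an unadjusted p under 0.05 there were also 0 members, against 577 of all transcripts tested. DESeq2 called none of the 24 either. The standard errors of the members' log2 fold changes lay between 0.78 and 2.18, so that a difference of 1 on the log2 scale was within 2 standard errors for each of them. Log2 fold changes were below 0 for 17 of the 24 members (70.8%), as for 46.8% of all transcripts tested, and their median was -0.51, against 0.13 over all transcripts tested. This median turned to 0.18 without 30°C replicate 3 (0.32 over all transcripts) and to 0.05 without 42°C replicate 4 (-0.03 over all transcripts). In a fit with the clone as a replicate block it was -0.08, against 0.24 over all transcripts. In a fit without a count limit, in which 65 members could be tested, it was -0.505, and again none was called.

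Among the 136 cytosolic ribosomal protein transcripts tested, 47 were called lower and 0 higher, and the median log2 fold change was -2.26. All 136 log2 fold changes were below 0. The number of calls was 71 with the replicate block, 30 without 42°C replicate 3 and 13 without 30°C replicate 4. The cytosolic transcripts were counted more often, so both sets were also compared at like mean counts. Among transcripts with a mean of 10.5 to 42.5 counts, the range of the tested members, 5 of 21 cytosolic ribosomal protein transcripts were called lower, with a median log2 fold change of -2.49, against 0 of 24 mitochondrial ones with -0.51. Of all 1976 transcripts in that range, 1.37% were called lower and 0.607% higher. The median standard error was 0.81 for the cytosolic and 1.52 for the mitochondrial transcripts in the range. A transcript of either set could enter the range through the temperature at which it was high. The direct test of one set against the other was not made, and the counts and medians are given as a description.

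**Figure D4:**
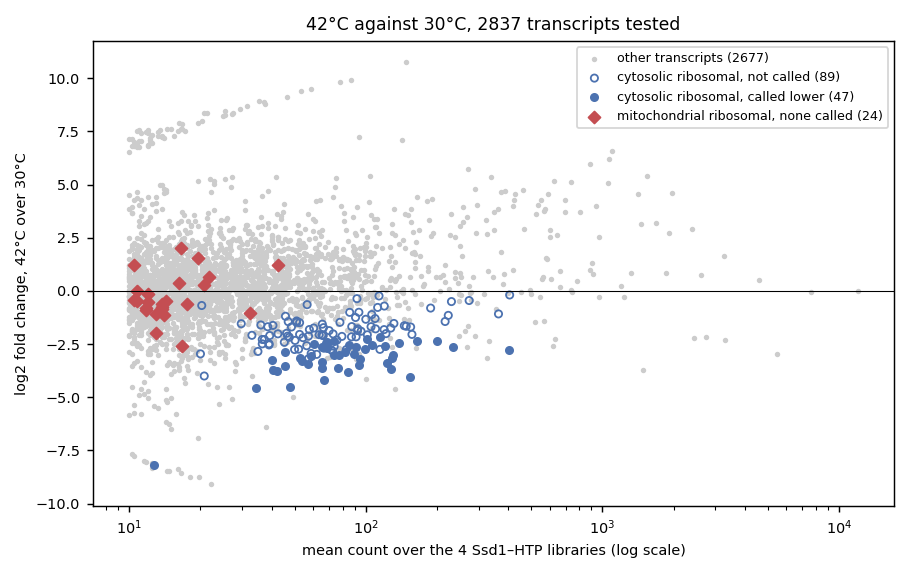
Log2 fold change of 42°C over 30°C (vertical axis) against mean count over the 4 Ssd1–HTP libraries (horizontal axis, log scale) for the 2837 transcripts tested. Diamonds are the 24 mitochondrial ribosomal protein transcripts, circles the 136 cytosolic ones, filled where called lower at an adjusted p under 0.05, and grey points the rest. The diamonds spread on both sides of 0, between -2.59 and 2.02, while all circles lie below 0.

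On the TMM scale, 7 of the 24 members were lower at 42°C in both clones and 4 were higher, and the other 13 differed in direction between the clones or did not differ in one of them. Of all transcripts tested, 29.0% were lower and 36.2% higher in both clones on that scale. By CPM, 8 members were lower in both clones, MRP4 now among them, and 3 were higher, without MRPL39, against 31.1% and 33.9% of all transcripts tested. Among members whose CPM values at 42°C did not overlap with those at 30°C, 4 were lower (MRPS18, MRPL51, RSM28 and MRP4) and 2 higher (MRP51 and MRPL3), where 25.7% of all transcripts tested were lower and 27.2% higher in this way. The intervals of MRPS18, RSM28 and MRP4 overlap another transcript on the other strand, and reads there may be counted on both. The shares over all transcripts tested were not taken at like counts. Only 12 of the 24 members had counts in all 4 Ssd1–HTP libraries. These values are therefore given as a description.

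Among small subunit members that were lower in both clones on either scale, MRPS18 (YNL306W, chromosome XIV, 58129 to 58922) had the most counts. It is the counterpart of bacterial S11, which lies at the platform where mRNA leaves the small subunit. It had 14 and 49 counts at 42°C and 43 and 23 at 30°C. As counts per library scaled to a common total (CPM), this was 101 CPM at 42°C and 224 CPM at 30°C, the highest mean CPM of all members at 30°C. Its log2 fold change was -1.04 with a standard error of 0.78 (adjusted p = 0.564 from edgeR). The interval shares 113 nt with BXI1 on the other strand, which had 39 and 99 counts at 42°C and 23 and 6 at 30°C, and reads there may be counted on both.

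MRP13 (YGR084C, chromosome VII, 647076 to 648356) had 0 and 21 counts at 42°C and 8 and 23 at 30°C, with a log2 fold change of -1.99 and a standard error of 1.70. Its interval shares 69 nt on the same strand with RPL11B, which encodes a cytosolic ribosomal protein and had 15 and 45 counts at 42°C and 58 and 69 at 30°C. What part of the MRP13 counts lies in the shared stretch was not tested. RSM28 (YDR494W, chromosome IV, 1436897 to 1438087) had 4 and 24 counts at 42°C and 14 in each clone at 30°C. Its log2 fold change was -1.15 with a standard error of 1.30. The interval of RSM28 shares 98 nt with VPS3 on the other strand, which had 6 and 18 counts at 42°C and 7 and 4 at 30°C. MRP13 and RSM28 are both proteins of the small subunit. As CPM, the libraries of the temperatures overlapped for MRP13 and were apart for RSM28.

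In the large subunit, MRPL51 (YPR100W, chromosome XVI, 729753 to 730312) had the most negative log2 fold change of the members tested, which was not called. It had 0 and 18 counts at 42°C and 35 and 14 at 30°C, a mean of 21.8 CPM at 42°C and 161 CPM at 30°C. The log2 fold change was -2.59 with a standard error of 1.44 (adjusted p = 0.393 from edgeR). MRPL25 (YGR076C) had 0 and 28 counts at 42°C and 9 and 10 at 30°C, with a log2 fold change of -0.79, which became 0.19 without 42°C replicate 3. As CPM, the libraries of the temperatures were apart for MRPL51 and overlapped for MRPL25.

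On the TMM scale, values were higher at 42°C in both clones for MRP51, MRPL3, MRPS12 and MRPL39, of which none was called. As CPM, MRPL39 was lower at 42°C in clone 4 (48.4 CPM at 42°C against 53.7 CPM at 30°C). MRP51 (YPL118W, chromosome XVI, 326542 to 327748), a small subunit protein that is needed for the translation of mitochondrial mRNAs for cytochrome oxidase subunits, had 22 and 35 counts at 42°C and 9 and 0 at 30°C. Its log2 fold change of 2.02 was the largest among the members tested, with a standard error of 1.63 (adjusted p = 0.601 from edgeR). MRPL3 (YMR024W, chromosome XIII, 321866 to 323242), a large subunit protein, had 17 and 48 counts at 42°C and 13 and 0 at 30°C, a log2 fold change of 1.56 with a standard error of 1.54. Neither MRP51 nor MRPL3 had counts in 30°C replicate 4, and for both the CPM values at 42°C lay above those at 30°C.

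MRPS12 (YNR036C, chromosome XIV, 694201 to 694832), the counterpart of bacterial S12 at the decoding centre, had 29 and 32 counts at 42°C and 22 and 4 at 30°C. Its log2 fold change was 0.64 with a standard error of 1.05. MRPL39 (YML009C, chromosome XIII, 251162 to 251558), the counterpart of bacterial L33 in the large subunit, had 23 and 20 counts at 42°C and 16 and 6 at 30°C. Its log2 fold change was 0.36 with a standard error of 1.15, and -0.35 without 42°C replicate 3. Its interval is the shortest of all members, at 397 nt, and per length (TPM) it stood at 280 at 42°C and 219 at 30°C, on average over the clones. For MRPS12 and MRPL39 the CPM values of the temperatures overlapped.

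MRP8 (chromosome XI, 178457 to 179310), which is not a ribosomal protein, had the most counts of the 66, with 18 and 123 at 42°C and 21 and 8 at 30°C. The temperatures overlapped, and after TMM scaling the ratio of 42°C to 30°C was 0.871 in clone 3 and 4.82 in clone 4. Its log2 fold change of 1.21 had a standard error of 0.90 (adjusted p = 0.558 from edgeR). Ranked by mean count, MRP8 stood at 788 of the 5090 transcripts and MRPS18, the next member, at 1070. In 42°C replicate 4, MRP8 alone made up 123 of the 995 counts of the set.

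Some members with marked differences in counts had too few counts for the test. MRPL31 (YKL138C), a large subunit protein, had 0 and 1 counts at 42°C and 14 and 18 at 30°C, and it was among the 5 members of highest mean CPM at 30°C. In the fit without a count limit its log2 fold change was -5.56 with a standard error of 2.32 (adjusted p = 0.161 from edgeR). MRPL37 (YBR268W), also of the large subunit, had no counts at 42°C and 14 and 8 at 30°C. With each library at 42°C set to 3 counts, its mean CPM at 30°C was 6.04 times that at 42°C. RSM22 (YKL155C), a methyltransferase-like protein bound to the small subunit, had no counts at 42°C and 3 and 14 at 30°C, with a ratio of 5.70 at the same setting. Its interval overlaps RPS27A by 79 nt on the other strand, and reads there may be counted on both. RPS27A, of the cytosolic set, was lower after heat shock as well. In replicate 3 it went from 84 at 30°C to 2 at 42°C, in replicate 4 from 43 to 8, and the control had 3. How much of the RSM22 signal comes from the shared stretch was not tested. MRPL22 (YNL177C), the counterpart of a bacterial protein that lines the exit tunnel, had 11 and 24 counts at 42°C and none at 30°C. With each library at 30°C set to 3 counts, its mean CPM at 42°C was 2.81 times that at 30°C. Such limits are for counting error only and leave out the spread between clones. Without a count limit, the fitted log2 fold changes had standard errors of 3.12 for MRPL37, 3.23 for RSM22 and 3.36 for MRPL22. In the fit without a count limit these 4 members had an unadjusted p under 0.05, which is 4 of 65, where 15.4% of all transcripts did, and none was called. Other members that were not tested differed in either direction. RSM7 had 15 and 20 counts at 42°C and 1 and 0 at 30°C. MRPL20 had 4 and 10 at 42°C and none at 30°C, and RSM19 none at 42°C and 11 and 0 at 30°C. RSM22, RSM7, MRPL20 and RSM19 were picked after their values had been seen.

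Whether the members exceeded the untagged control could not be resolved. Where the control had no count, up to 3 counts (765 CPM) remain possible, while the highest member at 30°C, MRPS18, stood at 224 CPM. No member could therefore be put above the control at this depth. Of 23 members tested at 30°C against the control, 0 were called by edgeR, where 0.887% of all 2256 transcripts tested were called higher and 2.44% lower, or 3.32% in all. These calls were 20 higher and 55 lower, and with TMM scaling 77 higher and 1 lower, again with 0 members. At an unadjusted p under 0.05 there were 0 of the 23 as well, and 1 by DESeq2. With 1 control library, the spread in that test is that among the Ssd1–HTP libraries. Summed over the members, the share at 30°C was 0.842 times that in the control (exact 95% interval 0.523 to 1.45, for counting error only, treating counts as separate molecules).

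The 17 control counts fell on 7 members. MRPL37 had 4 counts in the control, or 1020 CPM, against 79.1 and 71.5 CPM at 30°C, a ratio of 0.0747 for 30°C over the control. MRPL22, with none at 30°C, also had 4 counts in the control. In the fit without a count limit MRPL22 was called lower at 30°C than in the control, 1 of 65 members, where 3.48% of all 4948 transcripts were called lower. This call rests on 4 counts in 1 library. MRPL7 (YDR237W), the counterpart of bacterial L5, and MRPS16 (YPL013C), that of bacterial S16, had 3 counts each in the control and 15 counts each at 30°C over both libraries, a ratio of 0.0679. These 4 members were chosen for having 3 or more control counts, so that low ratios follow from the choice and are given as a description. Between the temperatures, MRPS16 had 6 and 27 counts at 42°C and 3 and 12 at 30°C (log2 fold change -0.13 with a standard error of 1.62), and MRPL7 had 0 and 18 at 42°C and 15 and 0 at 30°C. MRP4, RSM22 and RSM23 had 1 control count each and are named to complete the 7.

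Genes outside the naming rule that act in the same process were counted too. The 13 further mitochondrial ribosomal proteins with other symbols (IMG1, NAM9, PET123, MNP1 and others) held 0.103% and 0.0464% of counts at 42°C and 0.0627% and 0.0742% at 30°C, with overlap and a ratio of 1.09. Of these, 6 were tested and 0 called. EHD3, whose product is also a hydrolase of valine breakdown, had 43 and 38 counts at 42°C and 0 and 4 at 30°C, a log2 fold change of 3.42 with a standard error of 1.51 (adjusted p = 0.253 from edgeR). EHD3 was picked after its values had been seen.

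A list of 9 genes comprised initiation, elongation, release and recycling factors of mitochondrial translation and the formyltransferase FMT1. They held 0.0383% and 0.0300% of counts at 42°C and 0.0203% and 0.0206% at 30°C, a ratio of 1.67 without overlap. The counting interval of 42°C replicate 4 (0.0249 to 0.0358%) overlapped those at 30°C (0.0142 to 0.0282% and 0.0130 to 0.0309%). The 12 mitochondrial aminoacyl-tRNA synthetases had a ratio of 1.65 and overlapped (0.0714% and 0.0317% at 42°C, 0.0429% and 0.0197% at 30°C). MST1, the threonyl-tRNA synthetase among them, had 27 and 20 counts at 42°C and none at 30°C (adjusted p = 0.172 from edgeR). The 14 translational activators of single mitochondrial mRNAs had a ratio of 0.952, and the 6 assembly factors of mitochondrial ribosomes 0.761. Of the genes in these 4 lists, 2, 4, 8 and 0 were tested and none was called. MST1 was picked after its values had been seen.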

How the data were processed

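CRAC libraries from 4 Ssd1–HTP samples and 1 untagged sample were analysed. The authors trimmed adapters with flexbar, split the reads by barcode, collapsed PCR duplicates by insert and random barcode bases, aligned them with Novoalign and counted them on 5090 transcript intervals with multiBamCov of bedtools. The deposited table holds these read counts as whole numbers, not normalized. The submitters' processing notes name the build sacCer3, and coordinates are those of the table. For 878 transcripts without mapped ends, 1 of the members (MRPL10) among them, the authors added untranslated regions of default length. Use of strand was not given in the sources used here. Of the 66 members, 20 have intervals that overlap another transcript, and reads there may be counted on both. All 5090 locus names were matched to symbols in the RefSeq gene table of assembly R64.

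CPM (counts per library scaled to a common total) used total counts, and TPM used counts divided by interval length. The temperatures were set against each other in R 4.3.3 by the quasi-likelihood test of edgeR 4.0.16, with TMM scaling and no covariate, limited to transcripts that averaged 10 or more counts over the Ssd1–HTP samples, with Benjamini-Hochberg adjustment over all of these and a threshold of 0.05. At 30°C against the control, all 5 libraries entered 1 fit with total counts as library sizes and the same limit on counts at 30°C. Standard errors are the log2 fold change over the square root of F. DESeq2 1.42.0 was an alternative. Intervals were exact (scipy 1.17.1), and figures were drawn with matplotlib 3.10.9 in Python 3.11.15. Expected detection at a common depth was computed from the hypergeometric distribution. The test was also run on simulated counts with large known changes, placed among all transcripts tested. That run does not show what the test can find at the members' counts or for small changes.

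Replicate numbers mark clones whose samples at both temperatures were combined in library preparation, so they pair the samples. The difference between clones 3 and 4 at 42°C and at 30°C had a correlation of -0.02 across the 2837 transcripts tested. The members and lists were chosen with earlier results of these data known. Members named in the text are those called in either fit, the 5 highest and 5 lowest log2 fold changes with 1 direction in both clones on the TMM scale (only 4 positive ones met this), the 5 of highest mean CPM at each temperature, those with 3 or more control counts and those without counts in the Ssd1–HTP libraries, and exceptions are marked. Alternatives changed the normalization, count limit, test, threshold and replicate block and left out each library, MRP8 or overlapping members.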

Additional observations from a re-analysis of the deposited data

How the results depend on the processing

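At 42°C against 30°C, 0 members were called in either direction in edgeR with another scaling method (RLE) or total counts. The same held without a count limit, at a threshold of 0.1, without MRP8, with the replicate block (paired clones) and in DESeq2. A mean count of at least 50 left no member to test. At 30°C against the control, 1 of 65 members was called lower without a count limit (3.48% of all transcripts were), and 0 in the other alternatives. No paired fit was possible against the control, because it shares no clone number. With a library left out, the median log2 fold change of the tested members ranged from -0.786 to 0.182. With the replicate block it was -0.0837.

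The ratio of 42°C to 30°C of the summed CPM was 0.733 as a paired value within clones (replicate block) and lay between 0.618 and 0.872 with a library left out. It was 0.796 without members that overlap another transcript. For the shares, leaving out members that overlap another transcript gave 0.178% at 42°C and 0.224% at 30°C, taking the total without the 10 transcripts of most counts gave 0.311% at 42°C and 0.485% at 30°C, and leaving out MRP8 gave 0.234% at 42°C. With a library left out, the share was 0.241 to 0.268% at 42°C and 0.292 to 0.411% at 30°C, and the detection rate 68.2 to 86.4% at 42°C and 57.6 to 74.2% at 30°C. At the depth of the control the expected detection rate was 13.0% at 42°C and 17.1% at 30°C. The ratios of each subunit alone were chosen after the data were seen.

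Of 11 named members tested, none was called under any alternative. The direction of MRPS16 was reversed to a log2 fold change of 0.0259 without a count limit, 0.200 with the replicate block, 0.341 without 42°C replicate 3 and 1.68 without 30°C replicate 4. That of MRPL25 was reversed to 0.194 and that of MRPL39 to -0.354 without 42°C replicate 3. With a library left out, the ranges were -0.964 to 1.68 for MRPS16, -1.17 to 0.194 for MRPL25 and -0.354 to 0.883 for MRPL39. The ranges of MRPS16 and MRPL25 do not cover the fit without 42°C replicate 4, where both fell below the count limit. The cause was not tested. All members had fewer than 50 counts on average, and the log2 fold changes of those tested had standard errors of 0.78 or more.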
